A study of Mus musculus with 13 samples.

Results

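Wild-type glucocorticoid receptor (GR) binding sites were compared between mouse embryonic fibroblasts given dexamethasone with lipopolysaccharide (Dex+LPS) and fibroblasts given dexamethasone alone (Dex). The Dex+LPS sites were all 22486 rows of the wild-type-specific list (18953) and of the list shared with a receptor mutant (3533), merged by the authors from 3 wild-type libraries. The Dex sites were all rows of the lists of both wild-type Dex libraries, 412 in library 1 and 854 in library 2. Together these are 23752 of the 26052 sites in all the lists of the study. A Dex site was called kept where it shared at least 1 bp with a Dex+LPS site and missing otherwise, and a Dex+LPS site was called gained where it met no Dex site of either library.

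Binding was read by ChIP-seq, in which chromatin fixed to its proteins is pulled down with an antibody and the recovered DNA is sequenced, here with the same anti-GR antibody in every library. The Dex+LPS group was wild-type fibroblasts from C57BL/6 male embryos (day 13.5), cultured for 7 days and exposed to 1 µM Dex for 16 h with LPS, given in the labels as 100 ng/µl, for 3 h. The Dex group was fibroblasts of the same genotype, strain, sex and embryonic age with 1 µM Dex for 16 h and no LPS. Other groups of the study carried a receptor with an altered zinc finger (GR Zn/Zn) or no receptor, and they enter here only where a wild-type site is set against their sites. No group without Dex and no group with LPS alone was analysed here, so no value below is the effect of either agent by itself against untreated cells.

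GR is a nuclear receptor that, once it holds a glucocorticoid, enters the nucleus and binds DNA through zinc fingers. It binds as a dimer to a palindromic response element, and it is also found at sites of AP-1 and NF-kB, transcription factors of the inflammatory response. Dex is a synthetic glucocorticoid and LPS a bacterial cell wall component that is sensed through Toll-like receptor 4. In fibroblasts glucocorticoids are known to lower the output of inflammatory cytokines and to act on matrix and clock genes.

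The lists differ in how they were made. The Dex+LPS list was merged over libraries, lost the sites also found in receptor knockout cells and holds sites of exactly 200 bp. The Dex lists hold 1 library each, with no knockout removal named, and widths of 213 to 2599 bp (median 273 bp) in library 1 and 227 to 3852 bp (median 298 bp) in library 2. Read depth is unknown for every list, and no height, score or p-value comes with a site. Treatment and list making therefore cannot be told apart, and with 1 merged list against 2 libraries no test over samples was possible. All intervals below are exact (Clopper-Pearson) 95% binomial intervals that cover counting error only. Whether the Dex libraries came from separate cultures is not stated, so their spread may be technical. Chromosomes 10 to 14 held 31.7% of the Dex+LPS sites, against 68.2% and 73.9% of the sites of Dex libraries 1 and 2, so values are also given without these chromosomes where they move. The Dex+LPS list, too, held more sites on chromosome 10 (1716) than on any other, with 1592 on chromosome 1. All 11 defining fibroblast markers, Col1a1, Pdgfra and Vim among them, had a Dex+LPS site, where 33.0% of the 21896 protein-coding genes had one, and the counts were 1 of 7 for macrophages, 4 of 4 for endothelium, 0 of 3 for neurons, 2 of 3 for epithelium and 0 of 3 for muscle. No such marker had a Dex site, which 1.09% (library 1) and 1.86% (library 2) of protein-coding genes had. A site shows where the receptor was found and gives no level of the gene, so these counts say little of cell purity.

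The promoter windows below are examples of sites at gene starts, of which Dex+LPS had many and Dex very few. They were picked after their values were seen, so they do not show how common a motif was under the sites. Each window runs from 250 bases before to 50 bases after a RefSeq gene start (GRCm38.p6, the assembly of mm10), 300 bases in all, read 5′ to 3′ on the strand of the gene. Capitals mark motif matches on either strand: the GR element GNACANNNTGTNC, a shorter GR motif AGAACA (which can overlap the element), the AP-1 motif TGANTCA and the NF-kB motif GGGANNTTCC. A230028O05Rik (chr16:25059389-25059688, + strand) and Slc10a6 (chr5:103629354-103629653, - strand) are the windows that met both a Dex+LPS and a Dex site. Il6 (chr5:30012864-30013163, + strand) and Map3k7 (chr4:31963857-31964156, + strand) are inflammatory genes whose start was covered under Dex+LPS and had no site in either Dex library.
A230028O05Rik: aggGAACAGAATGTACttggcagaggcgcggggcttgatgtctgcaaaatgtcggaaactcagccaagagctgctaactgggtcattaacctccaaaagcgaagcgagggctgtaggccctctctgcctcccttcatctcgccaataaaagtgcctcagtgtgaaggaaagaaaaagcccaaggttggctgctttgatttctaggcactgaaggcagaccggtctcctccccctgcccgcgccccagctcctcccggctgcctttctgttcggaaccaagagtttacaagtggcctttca
Slc10a6: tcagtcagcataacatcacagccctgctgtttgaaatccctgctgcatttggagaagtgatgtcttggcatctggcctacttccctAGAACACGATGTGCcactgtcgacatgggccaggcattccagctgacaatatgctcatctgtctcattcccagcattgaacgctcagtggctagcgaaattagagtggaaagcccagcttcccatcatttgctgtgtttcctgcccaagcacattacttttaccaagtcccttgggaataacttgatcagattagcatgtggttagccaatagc
Il6: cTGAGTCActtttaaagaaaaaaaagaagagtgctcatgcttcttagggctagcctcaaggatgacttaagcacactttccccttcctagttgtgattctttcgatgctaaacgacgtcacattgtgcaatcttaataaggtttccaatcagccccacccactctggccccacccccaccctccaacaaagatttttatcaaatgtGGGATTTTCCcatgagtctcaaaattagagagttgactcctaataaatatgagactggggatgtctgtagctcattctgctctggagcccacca
Map3k7: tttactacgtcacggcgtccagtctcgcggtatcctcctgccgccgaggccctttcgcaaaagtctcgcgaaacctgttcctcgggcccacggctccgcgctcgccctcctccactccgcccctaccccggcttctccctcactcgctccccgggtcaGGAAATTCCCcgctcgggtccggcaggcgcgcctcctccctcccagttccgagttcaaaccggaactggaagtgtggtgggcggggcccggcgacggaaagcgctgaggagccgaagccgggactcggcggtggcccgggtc

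In the A230028O05Rik window the capitals are a GR element, and all its letters lay inside the Dex+LPS site (chr16:25059268-25059467) and inside the sites of both Dex libraries (chr16:25059252-25059567 and chr16:25059233-25059635). In the window of Slc10a6, a transporter of steroid sulfates, the capitals are a GR element overlapped by the shorter GR motif. The element lay inside the Dex+LPS site (chr5:103629402-103629601) and the site of Dex library 1 (chr5:103629417-103629684), and Dex library 2 had no site there. At Il6, the gene of the cytokine interleukin 6, the NF-kB match lay inside the Dex+LPS site (chr5:30012998-30013197) and the AP-1 match at the window's first bases lay outside it. At Map3k7, which encodes the kinase TAK1 of Toll-like receptor signalling, the NF-kB match lay inside the Dex+LPS site. A match is a run of letters and was not tested for binding.

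Promoter windows were met far more often under Dex+LPS. Of 32851 windows of 27025 genes, 1425 held part of a Dex+LPS site, against 2 with a site of Dex library 1 and 4 with a site of Dex library 2. The windows of Dynll1, Gm13830 and Fut8 met a site of Dex library 2 and no other site, and none of them held a GR element. The GR element was in 0.842% of the windows with a Dex+LPS site (12 windows, interval 0.436 to 1.47%), against 0.475% of all windows (interval 0.403 to 0.555%). The AP-1 motif was in 12.0% (interval 10.4 to 13.8%) against 7.81% of all windows (interval 7.52 to 8.1%), and the NF-kB motif in 2.04% (interval 1.37 to 2.91%) against 1.47% (interval 1.34 to 1.6%). The intervals overlapped for the GR element and the NF-kB motif and did not for the AP-1 motif. The shorter GR motif AGAACA was less frequent, in 12.9% (interval 11.2 to 14.8%) against 19.0% of all windows (interval 18.6 to 19.4%). The base composition of the windows was not compared. Promoters of chromosome 18 and sequence under the sites outside these windows were not used here.

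The number of sites was larger under Dex+LPS by more than an order of magnitude. The 22486 Dex+LPS sites lay at 8294 genes, against 412 sites at 300 genes in Dex library 1 and 854 sites at 515 genes in Dex library 2. The Dex+LPS list was 54.6 times as long as the list of Dex library 1 and 26.3 times as long as that of Dex library 2, and 35.5 times the Dex mean of 633 ± 313 sites (SD, n = 2). The gap to the merged list was far larger than this SD, which does not measure how much a merged list would vary. Outside chromosomes 10 to 14 the numbers were 15349 under Dex+LPS, against 131 and 223 under Dex, which is 117 and 68.8 times as many. The sites of both Dex libraries, joined where they overlapped, gave 1081 regions.

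Most Dex sites were not found again under Dex+LPS. In Dex library 1, 89 of 412 sites were kept (21.6%, interval 17.7 to 25.9%) and 323 were missing. In Dex library 2, 168 of 854 were kept (19.7%, interval 17.1 to 22.5%) and 686 were missing. The intervals of the libraries overlapped. On chromosomes 10 to 14 the kept shares were 21.4% (interval 16.7 to 26.6%) in library 1 and 22.0% (interval 18.9 to 25.5%) in library 2. On the other chromosomes they were 22.1% (interval 15.4 to 30.2%) in library 1 and 13% (interval 8.89 to 18.1%) in library 2. The kept share in library 2 was thus lower outside chromosomes 10 to 14, with intervals that did not overlap, and in library 1 it was not. With sites that overlapped a GR Zn/Zn Dex site left out, the intervals of library 2 overlapped. The shares were then 22.4% (interval 19.2 to 25.9%) on chromosomes 10 to 14 and 15.7% (interval 10.8 to 21.7%) on the others. In library 1 they were 22.1% and 29.3%.

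**Figure D1:**
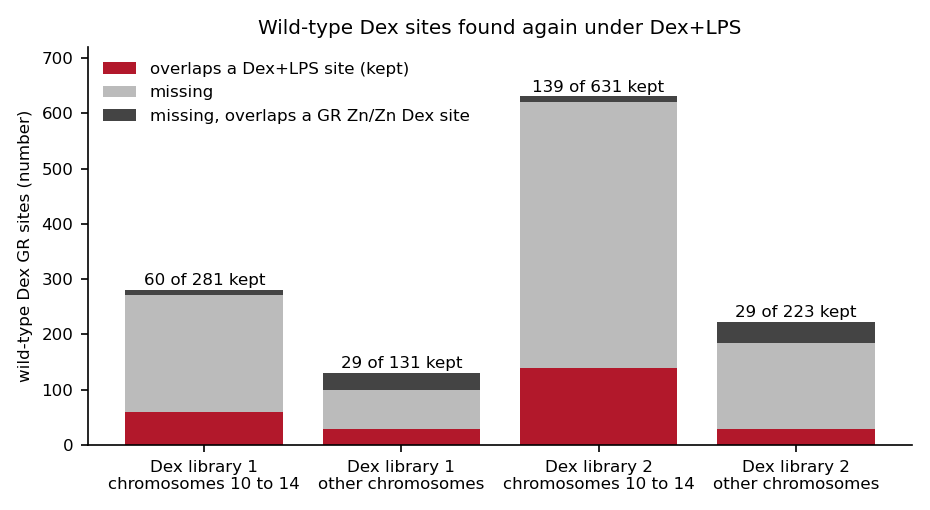
Number of wild-type Dex sites (vertical axis) in Dex libraries 1 and 2, on chromosomes 10 to 14 and on the other chromosomes, divided into sites that overlap a Dex+LPS site, missing sites, and missing sites that overlap a GR Zn/Zn Dex site. Kept sites were 60 of 281 and 29 of 131 in library 1, and 139 of 631 and 29 of 223 in library 2.

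Over all chromosomes, sites that recurred between the Dex libraries were kept less often than sites of a single library, an order that turned round in library 2 outside chromosomes 10 to 14. Of the sites of library 1 that met a site of library 2, 24 of 184 were kept (13%, interval 8.54 to 18.8%), against 65 of 228 sites of library 1 alone (28.5%, interval 22.7 to 34.8%). Of the sites of library 2 that met a site of library 1, 24 of 182 were kept (13.2%, interval 8.64 to 19.0%), against 144 of 672 of library 2 alone (21.4%, interval 18.4 to 24.7%). The intervals of library 1 did not overlap, and those of library 2 just did. Part of the recurrent sites also appeared in fibroblasts with the GR Zn/Zn receptor under Dex. Of the sites of library 1 that overlapped a GR Zn/Zn Dex site, 0 of 42 were kept (upper bound 8.41%), and of those of library 2, 0 of 48 (upper bound 7.4%). With these left out, 24 of 145 recurrent sites of library 1 were kept (16.6%, interval 10.9 to 23.6%), against 65 of 225 single ones (28.9%, interval 23.1 to 35.3%), and for library 2 the values were 16.7% (24 of 144) against 21.8% (144 of 662). The intervals then overlapped in library 2 and by a little in library 1. On the other chromosomes, also without GR Zn/Zn Dex sites, 22.9% of the recurrent sites (11 of 48 in each library) were kept, against 35.3% of the single sites of library 1 (18 of 51) and 13.1% of those of library 2 (18 of 137), so there the order differed between the libraries. With GR Zn/Zn Dex sites left in, the shares on these chromosomes were 13.9% of recurrent and 34.6% of single sites in library 1, and 14.1% of recurrent and 12.4% of single sites in library 2. Knockout peaks had been removed from the Dex+LPS list, and whether the 42 and 48 sites are such peaks was not tested.

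Kept shares also differed by position and width, with intervals that overlapped. Dex sites inside a gene were kept in 33.0% of cases in library 1 (34 of 103, interval 24.1 to 43.0%) and 25.8% in library 2 (57 of 221, interval 20.2 to 32.1%). Sites upstream of their gene were kept in 17.6% (26 of 148) and 17.1% (49 of 286), and sites downstream in 18.1% of both libraries (29 of 160 and 62 of 343). The interval for upstream sites ran from 11.8 to 24.7% in library 1 and from 13 to 22.0% in library 2, so it overlapped that of sites inside genes in both. By width, in 3 groups of about equal size, the narrowest, middle and widest sites were kept in 28.5%, 19.0% and 17.4% of cases in library 1 and in 20.8%, 22.1% and 16.2% in library 2. In library 1 the interval was 21.1 to 36.8% for the narrowest and 11.5 to 24.8% for the widest. In library 2 these were 16.2 to 25.9% and 12.1 to 21.0%. Without sites on a GR Zn/Zn Dex site the 3 shares were 30.2%, 20.5% and 21.1% in library 1. In library 2 they were 21.4%, 23.6% and 17.6%. A wider site has more bases in which to meet a 200 bp site, and in neither library was the widest group kept most often.

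Missing sites were often near a Dex+LPS site all the same. The centre of the missing site lay within 1 kb of the centre of a Dex+LPS site for 66 of 323 missing sites of library 1 and 160 of 686 of library 2, and within 10 kb for 57.9% and 59.9%. The median distance was 3.45 kb in library 1 and 3.05 kb in library 2. On chromosomes 10 to 14 it was 1.74 kb and 1.75 kb, and on the other chromosomes 26.9 kb and 18.4 kb, and 63 of the 66 and 145 of the 160 sites within 1 kb lay on chromosomes 10 to 14. Beyond 100 kb from any Dex+LPS site lay 19.5% of the missing sites of library 1 and 17.8% of those of library 2. A few missing sites, 15 in library 1 and 30 in library 2, overlapped a Dex+LPS site of the GR Zn/Zn-specific list. Sites that were missing, had no Dex+LPS site centre within 1 kb and overlapped neither a GR Zn/Zn Dex site nor a GR Zn/Zn-specific Dex+LPS site numbered 204 in library 1 (49.5% of its sites) and 454 in library 2 (53.2%).

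**Figure D2:**
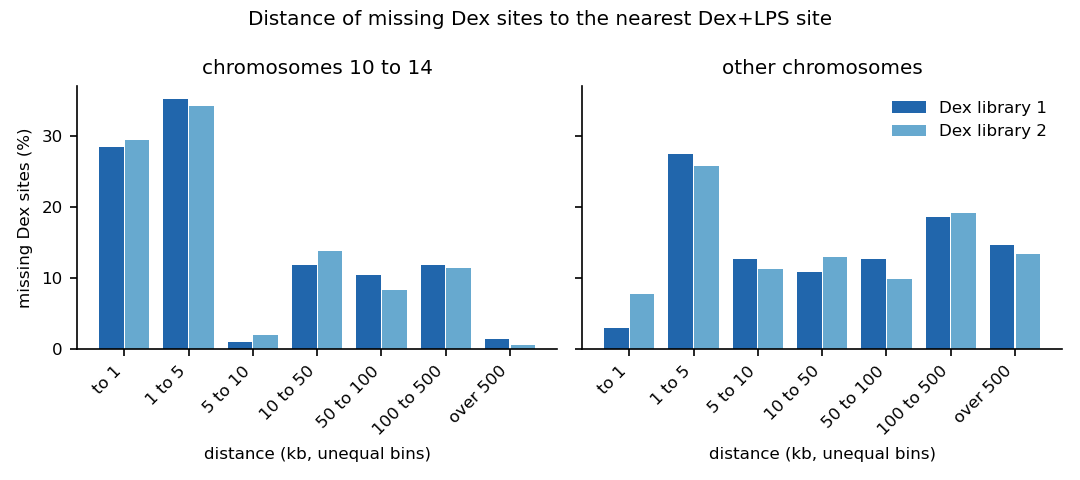
Percent of the missing Dex sites (vertical axis) by distance in kb from their centre to the centre of the nearest Dex+LPS site (horizontal axis, unequal bins), for Dex libraries 1 and 2. On chromosomes 10 to 14, 28.5% and 29.5% lay within 1 kb and 35.3% and 34.3% between 1 and 5 kb; on the other chromosomes 2.94% and 7.73% lay within 1 kb.

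Nearly all Dex+LPS sites were gained. Of 22486, 243 met a Dex site (1.08%, interval 0.95 to 1.22%) and 22243 did not. Of the 243, 23 met both Dex libraries, 66 library 1 only and 154 library 2 only. On chromosomes 10 to 14 the kept share was 2.75% (196 of 7137, interval 2.38 to 3.15%), against 0.306% on the other chromosomes (47 of 15349, interval 0.225 to 0.407%). The share is bounded by the length of the Dex lists, since the 412 and 854 Dex sites could not meet more than a small part of 22486.

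Kept and gained sites differed in their class. Of the kept Dex+LPS sites, 45.7% (111 of 243, interval 39.3 to 52.2%) also belonged to the list shared with the GR Zn/Zn receptor, against 15.4% of the gained sites (3422 of 22243, interval 14.9 to 15.9%). On chromosomes 10 to 14 the shares were 50.5% of kept and 17.5% of gained sites. On the other chromosomes they were 25.5% (12 of 47, interval 13.9 to 40.3%) and 14.4% (interval 13.9 to 15.0%), where the intervals overlapped. Of the sites kept in both Dex libraries, all 11 outside chromosomes 10 to 14 were wild-type-specific, against 7 of 13 on chromosomes 10 to 14. Wild-type-specific was the usual class on the other chromosomes, with 35 of the 47 kept and 13093 of the 15302 gained sites.

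Dex+LPS sites lay nearer to gene starts. By the authors' annotation, 17.8% of Dex+LPS sites lay within 5 kb of the start of their gene (4009 sites, interval 17.3 to 18.3%), against 2.43% in Dex library 1 (10 sites, interval 1.17 to 4.42%) and 2.34% in Dex library 2 (20 sites, interval 1.44 to 3.59%). The median distance was 41.6 kb for Dex+LPS, against 161 kb and 144 kb for Dex. The site covered the start itself for 504 Dex+LPS sites (2.24%), against 0 of 412 and 1 of 854 Dex sites; a count of 0 allows a share of up to 0.728%. Inside a gene lay 47.0% of Dex+LPS sites, against 25.0% and 25.9% of Dex sites, and beyond 100 kb lay 30.0%, against 58.5% in each Dex library. On the other chromosomes the share within 5 kb was 19.4% for Dex+LPS (interval 18.7 to 20.0%), against 5.34% (interval 2.18 to 10.7%) and 4.48% (interval 2.17 to 8.09%) for Dex. The annotation differed somewhat between the lists: among kept sites with the same gene in both lists, the distance to its start differed by over 2 kb for 7 of 84 in library 1 and 10 of 152 in library 2. With 1 set of RefSeq starts for every list, an alternative added after seeing the data that leaves out chromosome 18, 21.6% of Dex+LPS sites were within 5 kb, against 3.91% and 3.64% of Dex sites.

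**Figure D3:**
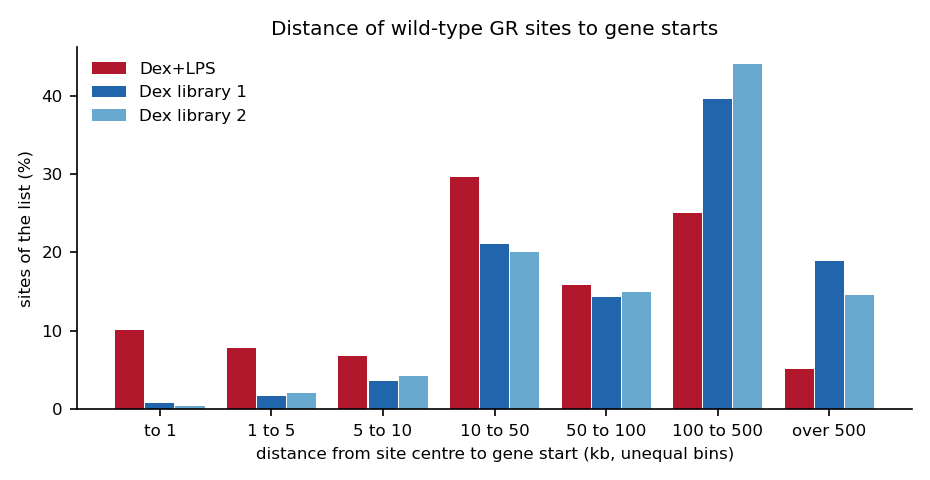
Percent of the sites of each list (vertical axis) by distance in kb from the site centre to the start of the annotated gene (horizontal axis, unequal bins), for Dex+LPS and Dex libraries 1 and 2. Within 1 kb lay 10.1% of Dex+LPS sites, against 0.728% and 0.351% of Dex sites, and between 100 and 500 kb lay 25.0%, against 39.6% and 44.0%.

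A kept Dex+LPS site overlaps a Dex site by definition, so its distance to a start follows that of the Dex site and is given as a description. Of the 243 kept Dex+LPS sites, 2.88% lay within 5 kb of a start (7 sites, interval 1.17 to 5.84%) with a median of 132 kb, against 18.0% of the gained sites (interval 17.5 to 18.5%) with a median of 41.1 kb. Inside a gene lay 35.0% of the kept Dex+LPS sites (85 of 243), against 25.0% and 25.9% of the sites of Dex libraries 1 and 2. On the other chromosomes the share was 59.6% (28 of 47), against 31.3% and 25.6%. Among Dex sites, the kept ones were within 5 kb in 4.49% (4 of 89) and 2.98% (5 of 168) of cases, against 1.86% (6 of 323) and 2.19% (15 of 686) of the missing ones, with overlapping intervals.

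Most genes with a Dex site also had a Dex+LPS site, though most of them held no kept site. Of 596 genes with a site in either Dex library, 495 also had a Dex+LPS site (83.1%, interval 79.8 to 86.0%), where 33.0% of all protein-coding genes had one. The 596 were not limited to protein-coding genes, and neither gene length nor the distance between genes was matched, so these shares are not like for like. The share was 82.3% in library 1 (247 of 300) and 83.7% in library 2 (431 of 515). Of the 596 genes, 192 held a kept site, 303 had Dex+LPS sites only at other positions, and 101 had no Dex+LPS site. In reverse, 5.97% of the 8294 Dex+LPS genes had a Dex site. Outside chromosomes 10 to 14 the share of Dex genes with a Dex+LPS site was 67.4%. Gene names follow the annotation of each list, which could differ at the same position: the names agreed at 84 of 89 kept sites of library 1 and 152 of 168 of library 2. A site inside 1600010M07Rik in the Dex lists was given to Wee1 in the Dex+LPS list, and a site inside Pde4d to Depdc1b.

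Known GR targets, the longest list, had the most genes with a Dex site, 9 of 45 over both libraries, and 38 of the 45 had a Dex+LPS site. In the order Dex+LPS, Dex library 1, Dex library 2, sites were found at 38, 7 and 8 of 45 known GR target genes, where 33.0%, 1.09% and 1.86% of the 21896 protein-coding genes had a site. The circadian clock list had 13, 2 and 1 of 20 genes and the Kruppel-like factors, zinc finger transcription factors, 13, 2 and 3 of 17. In percent, the GR targets reached 84.4% under Dex+LPS, against 15.6% and 17.8% under Dex, all above the values for protein-coding genes. The lists were short and chosen with knowledge of these data, gene length was not matched, and no test of the lists was made.

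**Figure D4:**
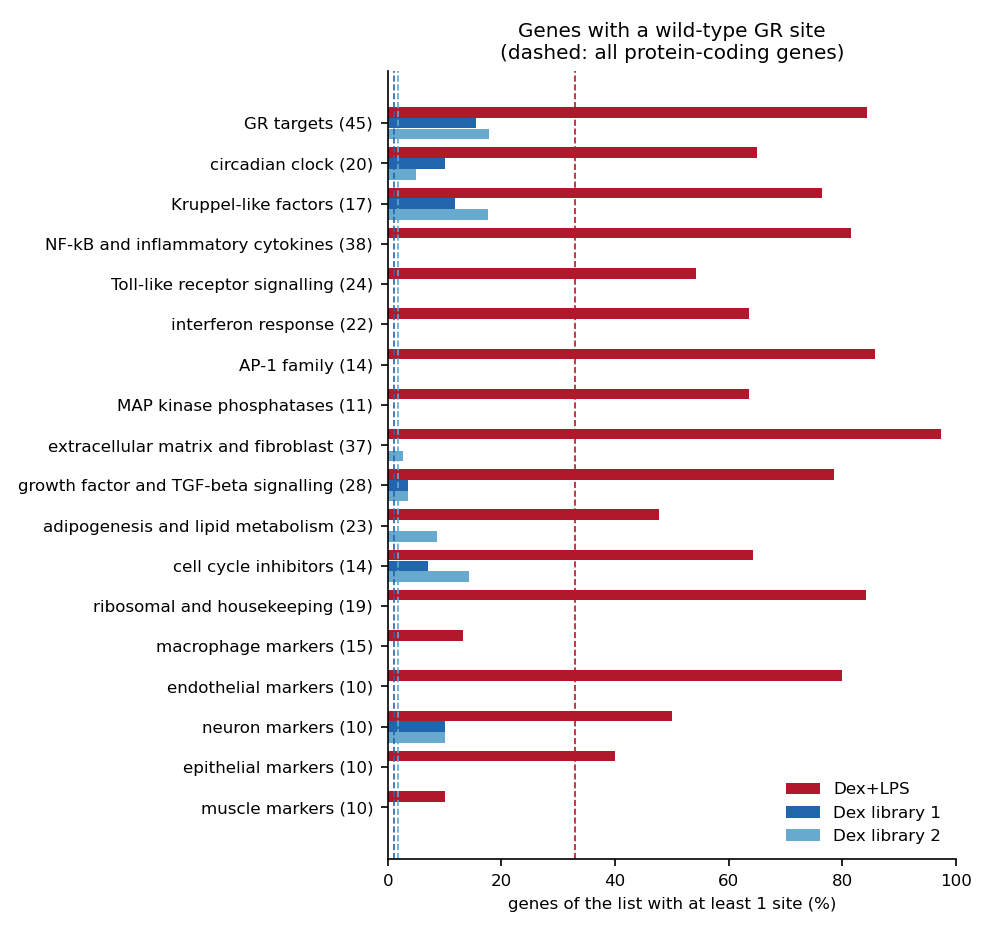
Percent of the genes of each list with at least 1 site (horizontal axis), for Dex+LPS and Dex libraries 1 and 2, with the number of genes in brackets; dashed lines give the percent of all 21896 protein-coding genes (33.0, 1.09 and 1.86%). The NF-kB, Toll-like receptor, interferon and AP-1 lists had no gene with a Dex site.

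Fkbp5, which encodes a co-chaperone that holds back GR and is among its best known targets, had the same site in all lists. It lay upstream, at chr17:28517911-28518110 under Dex+LPS (486 bp from the start), at chr17:28517951-28518312 in Dex library 1 (608 bp) and at chr17:28517955-28518394 in Dex library 2 (650 bp). Library 1 had a further kept site inside the gene, 97201 bp from the start. In all Fkbp5 had 16 Dex+LPS sites, against 2 and 1 Dex sites. The gene was thus marked at 1 recurrent place under Dex and along its length under Dex+LPS.

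Per1, a repressor of the circadian clock, had 2 Dex+LPS sites, against 1 in each Dex library. The kept site lay inside the gene, 1832 bp from the start under Dex+LPS, against 1843 bp and 1866 bp under Dex, and was of the class shared with the GR Zn/Zn receptor. The gained site was wild-type-specific and lay 150 bp upstream of the start. Per2, of the same family, had 3 Dex+LPS sites, of which 1 was kept from Dex library 1, while library 2 had none.

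Zbtb16, which encodes the transcriptional repressor PLZF, had 7 Dex+LPS sites, against 1 in each Dex library, and that site was kept inside the gene, 98610 bp from the start under Dex+LPS, against 98644 bp and 98624 bp under Dex. Klf13 had 7 Dex+LPS sites, against 1 in each Dex library, kept at 41811 bp under Dex+LPS, against 41860 bp and 41824 bp under Dex. Sesn1, a stress-induced gene of the sestrin family, had 1 Dex+LPS site, which met the only site of Dex library 1. Klf12 had 13 Dex+LPS sites, against 0 in library 1 and 2 in library 2, of which 1 was kept. The kept sites of these 4 genes lay over 10 kb from the gene start, while Klf13 also had 4 gained Dex+LPS sites within 5 kb of it.

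Cdkn1a, which encodes the cell cycle inhibitor p21, showed a partial overlap. It had 3 Dex+LPS sites, 3671, 4659 and 11441 bp downstream of the start and all of the shared class, against 1 site in Dex library 1 and 3 in Dex library 2. The kept site was a broad site of library 2 (1151 bp wide), while the recurrent Dex site, 15571 bp from the start in library 1 and 15639 bp in library 2, was missing. A recurrent Dex site just beyond it, annotated to Rab44 (chr17:29107198-29108495), was missing too and overlapped a GR Zn/Zn Dex site.

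Several missing sites lay close to a Dex+LPS site without touching it. At Hif3a, which encodes a subunit of a hypoxia-inducible factor, the Dex site inside the gene was 264 bp (library 1) and 282 bp (library 2) from the centre of the nearest of 2 Dex+LPS sites. At Lpin1, a phosphatidate phosphatase of lipid synthesis, the site of library 2 was 491 bp away from a Dex+LPS site. At Klf6 the recurrent Dex site 22174 bp (library 1) and 22117 bp (library 2) downstream was 706 bp and 649 bp away, and the gene had 17 Dex+LPS sites. At Egfr, the receptor of epidermal growth factor, with 12 Dex+LPS sites, against 2 and 3 Dex sites, the distances ran from 532 bp to 16418 bp. These count as missing under the rule of 1 shared bp and, apart from most Egfr sites, would not under a rule of 1 kb between centres. At Egfr only the library 1 site at 532 bp would pass. The recurrent Egfr site lay 1672 bp (library 1) and 1335 bp (library 2) away.

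**Figure D5:**
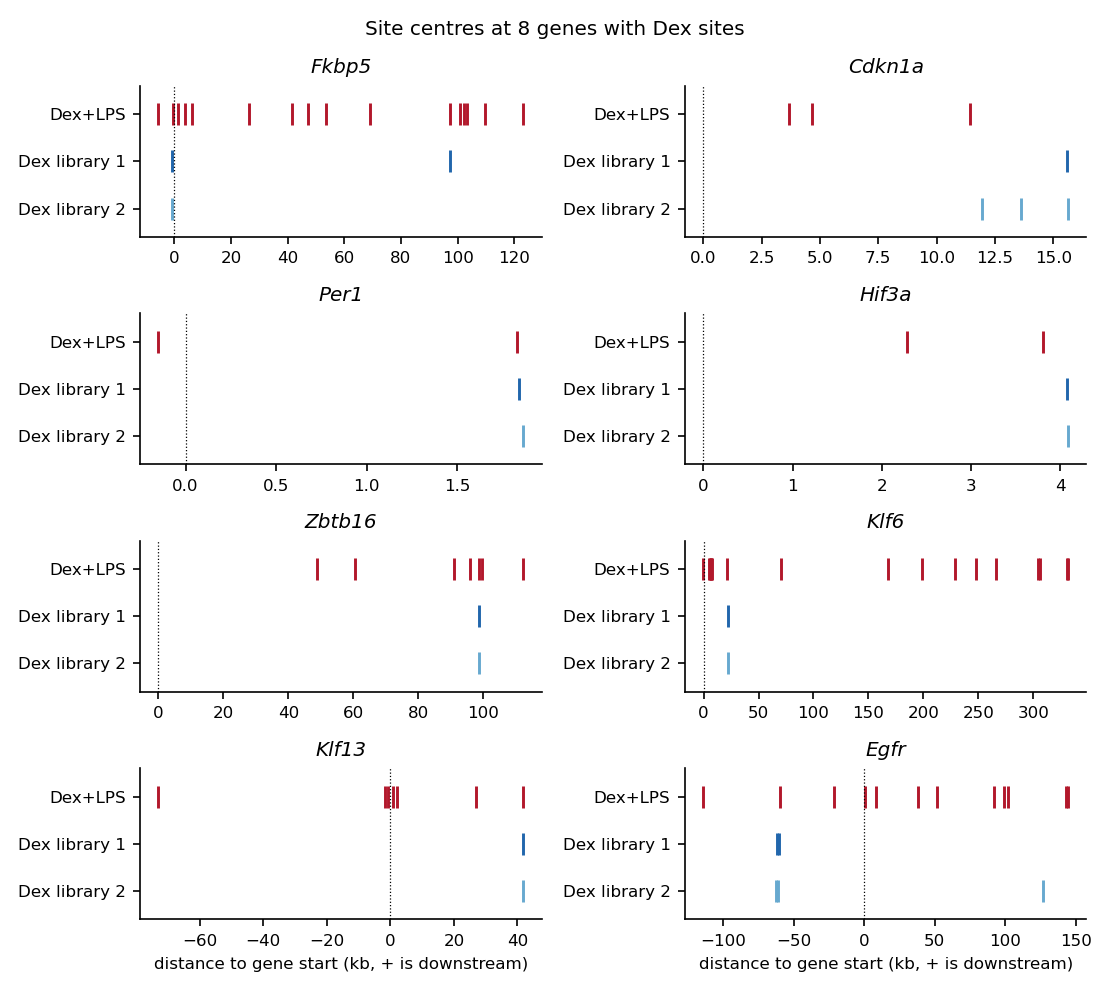
Centres of sites (ticks) around the annotated start (dotted line) of 8 genes with Dex sites, in kb, with Dex+LPS above Dex library 1 and Dex library 2. Left, genes with a kept site in both Dex libraries; right, genes whose recurrent Dex site was missing. Fkbp5 had 16 Dex+LPS sites, against 2 and 1 Dex sites.

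At other genes of the lists the centre of the Dex site lay over 1 kb from that of any Dex+LPS site, as at most Egfr sites. Arrdc3, an arrestin family gene, had 14 Dex+LPS sites, and its Dex sites, 1 in each library, lay 1581 bp and 2659 bp from the nearest of any Dex+LPS sites. Btg1, an antiproliferative gene, had 15 Dex+LPS sites and 1 site in library 2, which lay 13341 bp away. Nefm, a neurofilament gene, had 1 Dex+LPS site and a recurrent Dex site 12239 bp and 12280 bp from the nearest Dex+LPS site. Pdk4, a kinase that restrains pyruvate dehydrogenase and a known GR target, had no Dex+LPS site and 1 site in library 2, as did Thbs1, which encodes the matrix protein thrombospondin 1. The site nearest to that Pdk4 site was 22325 bp away and the one nearest to that of Thbs1 19858 bp away. The Btg1 and Pdk4 sites of library 2 overlapped a GR Zn/Zn-specific Dex+LPS site. These are all the genes of the lists with a Dex site: 17 of 350, of which 15 also had a Dex+LPS site and 8 a kept site.

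Inflammatory genes had sites under Dex+LPS and none under Dex. Of 98 genes in 4 lists (NF-kB and cytokines, Toll-like receptor signalling, interferon response, AP-1 family), 70 had a Dex+LPS site (71.4%, 244 sites in all, beside 33.0% of all protein-coding genes and 84.2% of the housekeeping and ribosomal list), against 0 in each Dex library. By list the Dex+LPS counts were 31 of 38, 13 of 24, 14 of 22 and 12 of 14. With 1.09% and 1.86% of protein-coding genes holding a Dex site, a list of 98 genes would hold few in any case, so the 0 says little about these genes in particular.

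Of the 146 Dex+LPS sites of the NF-kB and cytokine list, the highest counts per gene were at Csf1, the macrophage growth factor (21 sites, 9 of them shared with the mutant), Lif, a cytokine of the interleukin 6 family (11 sites), and Nfkbiz, an atypical inhibitor of NF-kB (9 sites, as many as Tnfaip3, which restrains NF-kB signalling). Of the 37 sites of the Toll-like receptor list, Map3k7 had 7, Tlr4, the receptor for LPS, 5 and Irak2, a kinase below it, 4, as did Tlr2 and Irak3. Interferon response genes had fewer, with 3 each at Ifit2 and Isg15 and 2 each at Gbp2, Mx2 and Ifnb1. Of the AP-1 family, Jun had 11, Fosl2 9 and Fos 4. Among these genes the nearest site was within 1 kb of the start at Nfkbiz, Tnfaip3, Map3k7, Tlr4, Tlr2, Ifit2, Isg15, Gbp2, Mx2, Jun and Fos.

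MAP kinase phosphatases, which switch off stress kinases, had Dex+LPS sites at 7 of 11 genes (63.6%) and no Dex site. The Dex+LPS share was 33.0% over all protein-coding genes and 84.2% in the housekeeping and ribosomal list. With 1.09% and 1.86% of protein-coding genes holding a Dex site, a list of 11 would hold few in any case. Dusp6 had 14 sites, Dusp1, a textbook GR target, 11 and Dusp10 6. The Dusp1 site nearest to the start was 894 bp downstream. Among GR targets with no Dex site, Sgk1, a kinase of salt transport, had 12 Dex+LPS sites and Pik3r1, a regulatory subunit of phosphoinositide kinase, 11.

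Structural genes of fibroblasts nearly all had a Dex+LPS site by the annotated gene, at any distance. Of 37 matrix and fibroblast genes, 36 had a Dex+LPS site (257 sites), against 0 in Dex library 1 and 1 in library 2. Over all protein-coding genes these shares were 33.0%, 1.09% and 1.86%. Where the gene body or 5 kb upstream had to hold the site, 30 of the 37 genes had a Dex+LPS site. A Dex+LPS site within 5 kb of the start was found at 21. Tnc, which encodes the matrix protein tenascin C, had 35, Lox, which crosslinks collagen, 18 and Fbn1, which encodes fibrillin, 14. Growth factor and TGF-beta genes had a Dex+LPS site at 22 of 28, against 1 in each Dex library, with 12 sites at Tgfbr3, 8 at Smad7 and 7 each at Igfbp3 and Smad3. Housekeeping and ribosomal genes reached 16 of 19, against 0 in each Dex library, so a high share under Dex+LPS was not limited to inflammatory or matrix genes. By gene body with 5 kb upstream the housekeeping and ribosomal list also had 16. Cell cycle inhibitors had 9 of 14 genes, against 1 and 2, and adipogenesis and lipid genes 11 of 23, against 0 and 2.

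By the annotated gene at any distance, the lists of markers of other cell types spread around the 33.0% of protein-coding genes with a Dex+LPS site. Macrophage markers had a Dex+LPS site at 2 of 15 genes (Mrc1 and Spi1), muscle markers at 1 of 10, epithelial markers at 4 of 10 and neuron markers at 5 of 10, where a Dex site was found at 1 neuron marker in each library. Endothelial markers had a Dex+LPS site at 8 of 10, Kdr with 3. Many of these sites were distant. Where the gene body or 5 kb upstream had to hold the site, the counts fell to 1 for neuron, 0 for epithelial, 0 for muscle and 6 for endothelial markers. Macrophage markers stayed at 2. The share of all protein-coding genes was not computed by that rule. The median number of Dex+LPS sites per gene was 6 for the matrix list, 3 for the NF-kB list, 2 for GR targets and 0 for macrophage markers.

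Gene starts covered by a Dex+LPS site were seen in most functional lists. They included Il6, Rela, Relb, Rel and Nos2 of the NF-kB list, Tnfaip3, Cebpd, Bcl6, Zfp36 and Gadd45b of the GR targets, Fos and Jdp2 of the AP-1 family, and Col1a1, Fn1, Dcn and Timp1 of the matrix list. None of these genes had a Dex site, which 1.09% (library 1) and 1.86% (library 2) of protein-coding genes had. Nfil3 and Bhlhe40 of the clock list had 6 Dex+LPS sites each and Rora 8, with no Dex site. Klf4 had 17 and Klf7 9, likewise with none under Dex. Sites were counted at their annotated gene, so these counts can miss a gene. Nfkb2 had 0 Dex+LPS sites by annotation, yet a Dex+LPS site met its promoter window. The same held at Sgk1 and Atf3, whose nearest annotated Dex+LPS sites lay at -32762 bp and 27933 bp from the start.

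Over all genes, 24 sites of Dex library 1 were kept and also found in library 2, 11 of them inside a gene and 3 within 5 kb of a start (A230028O05Rik, Fkbp5 and Per1). The next by distance were at Serpinb9g (8364 bp), Anapc16 (28876 bp), 1600010M07Rik (34121 bp), Tarm1 (39190 bp), Klf13 and Pde4d (65086 bp). Zhx3, Fam240b, Adra1b, Zbtb16, Dnm3 and Ralgapa1 followed at greater distances, and Dnm3, which encodes a dynamin, held 2 such sites 154695 bp and 341640 bp from its start. Recurrent kept sites were thus mostly distant or inside long genes.

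In contrast, 34 genes had a recurrent Dex site and no Dex+LPS site, with 47 sites in all, of which 23 overlapped a GR Zn/Zn Dex site. Nearest to a start were Aida (2296 bp), Nemf (4163 bp), Rab44 (6299 bp), Gm15767 (7014 bp), 4930517M08Rik (8598 bp), Acot6 (11862 bp) and Ripk3 (12571 bp). Ripk3 is a kinase of necroptosis, a form of inflammatory cell death, and its site lay 21796 bp from the nearest Dex+LPS site. Of the 15 nearest to a start, 10 overlapped a GR Zn/Zn Dex site, Trim30a and Cpeb4 among them. Ripk3, Acot6, Olfr741, Calb2 and 4933432I03Rik were the 5 that did not.

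Some genes collected many sites in a list. The most Dex+LPS sites were at Mir3084-1 (149) and 1700001F09Rik (69), then Gm21119 (61), Zfp982 (45), Tnc (35), Pde4d and Tns3 (33 each) and Foxp1 (31). In Dex library 1 the most were 6 at 6820431F20Rik, Grik2 and Zfy1, and in Dex library 2 15 at 6820431F20Rik and 12 at Gm21119. 6820431F20Rik and Zfy1 had no Dex+LPS site under their own name. Grik2, which encodes a glutamate receptor subunit, had 21 Dex+LPS sites, against 6 and 7 Dex sites. Ccng1, which encodes a cyclin, had 8, against 4 and 7. Mir3084-1 has a very long span in the files, and all 149 of its sites lay inside it.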

How the data were processed

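GR ChIP-seq sites of wild-type fibroblasts were taken as deposited by the authors. The deposited values are positions in base pairs, on mm10 per the submitters' processing notes, and an annotated gene with its signed distance; no count, score or height comes with a site. Those notes also list MACS2 2.1.0, Picard 1.119 and BWA 0.7.13 without their roles. Merging and removal of knockout peaks are named in the deposited Dex+LPS lists. The merging rule, control and annotation tool are not given in the sources used here. Depth per sample is unknown.

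Computed here were overlaps (at least 1 bp, the same as bedtools 2.31.1 on 500 of 500 intervals drawn), nearest distances between centres, counts per gene and exact 95% intervals, with pandas 2.3.3, scipy 1.17.1, numpy 2.4.6 and matplotlib 3.10.9 under Python 3.11.15. Upper limits for a count of 0 in a list use 3 counts. Of the Entrez gene identifiers, those of 10 Dex+LPS sites and 0 Dex sites were not in the RefSeq gene table (GRCm38.p6). No test over samples was made. Genes were named by these rules: any gene of the 18 lists with a Dex site; the 15 genes nearest to a recurrent kept site, and the 15 nearest to a recurrent missing one without a Dex+LPS site; per list the 3 genes with most Dex+LPS sites and no Dex site; and the 8 genes with most sites per list of sites. Genes tied with these, genes whose start was covered, Il6 among them, and the genes of the promoter windows were picked after their values were seen. The members, gene lists and rules were chosen with earlier results of these data known. Alternatives changed the overlap, the chromosomes, the Dex libraries, the distance and the annotation.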

Additional observations from a re-analysis of the deposited data

Results flagged for a closer look

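Wild-type Dex sites overlapped sites of the GR Zn/Zn receptor, whose lists lie outside the main comparison of wild-type Dex+LPS with Dex sites and served only to divide the Dex sites. On a GR Zn/Zn-specific Dex+LPS site lay 3.88% of the sites of wild-type Dex library 1 (16 sites, 13 of them on chromosomes 10 to 14) and 3.63% of those of library 2 (31 sites, 26 of them on chromosomes 10 to 14). On a GR Zn/Zn Dex site lay 10.2% of library 1 (42 sites, 10 on chromosomes 10 to 14) and 5.62% of library 2 (48 sites, 10 on chromosomes 10 to 14). They are listed because the counts were above 3, the limit that a count of 0 allows (0.728% of library 1 and 0.351% of library 2), which is a low bar. The overlap that chance would give was not computed. Why these sites are shared was not tested.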

How the results depend on the processing

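Of 61 alternatives over 14 results, 28 stayed near the reported value (a share inside its interval, a count or a difference within 1.5 times). Of the alternatives for single gene lists with at least 1 gene, 30 of 42 stayed within 1.5 times. The difference in kept share between recurrent and single Dex sites of library 2, -8.24 percentage points over all sites, was -5.09 without sites on a GR Zn/Zn Dex site, and it turned round to 1.69 without chromosomes 10 to 14 and to 9.78 with both left out. In library 1 it was -15.5, and the same alternatives, all added after seeing the data, gave -20.7 to -12.3. Without chromosomes 10 to 14 the Dex lists held 131 and 223 sites, and 99 and 185 when sites on a GR Zn/Zn Dex site were left out as well. The kept share of Dex sites was 37.6% and 38.4% with centres within 1 kb in place of overlap. Without chromosomes 10 to 14 it was 13% in library 2, and with both omissions 29.3% and 15.7%. It was 23.2% in library 2 with the GR Zn/Zn-specific Dex+LPS sites added. The kept share of Dex+LPS sites was 0.921% with at least 100 bp of overlap, 2.17% with centres within 1 kb, 0.306% without chromosomes 10 to 14, 0.396 to 0.787% with a single Dex library left and 0.102% for sites met by both. Of genes with a Dex site, 67.4% had a Dex+LPS site without chromosomes 10 to 14 and 86.1% by gene body with 5 kb upstream. Without chromosomes 10 to 14, 19.4% of Dex+LPS sites lay within 5 kb of a start, against 5.34% and 4.48% of Dex sites. Within 1 kb the shares were 10.1%, against 0.728% and 0.351%, and within 10 kb 24.6%, against 6.07% and 6.56%. With the same RefSeq starts for every list they were 21.6%, against 3.91% and 3.64%. Genes of all lists with a Dex site numbered 9 by gene body, against 17 by the authors' annotation, and 12 to 15 with a single library left. Beyond what the settings themselves change, the cause was not tested. No paired analysis was possible because the Dex+LPS libraries were merged before deposit and no test over samples was made. Unknown depth limits every count: a site missing from a list is a site not called in it.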
